A study of Mus musculus with 2 samples.

Results

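The Lin28 and let-7 axis was followed in mouse embryonic stem cells (ESCs) through 10 genes of a deposited expression table with 24532 genes. Lin28a, Lin28b, Dicer1, Trim71, Mycn, Hmga1, Hmga2, Igf2bp1, Igf2bp2 and Igf2bp3 were taken by their gene symbol, and each was found once in the table. The rule names genes and no measured value, although the genes were chosen with results of these libraries known. The study compared E14 cells with E14-Sox2TA/WT cells by RNA sequencing of polyadenylated RNA, from 1 library of each. E14, an established wild-type line of mouse ESCs, was grown with serum and leukemia inhibitory factor (LIF) according to the study's methods. E14-Sox2TA/WT cells are a line grown from a single sorted E14 cell in which CRISPR/Cas9 and a DNA donor changed threonine at residue 258 of Sox2 to alanine on 1 allele, while the other allele stayed wild type. The labels call this genotype Sox2 T258A mutant. The clone was expanded with 2i, the pair of inhibitors PD0325901 and CHIR99021, was normally kept in serum, LIF and 2i, and was used in the passages that followed removal of 2i. Genotype, clone and culture history therefore cannot be told apart, and no difference given here has a replicate check or a p-value.

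Lin28a and Lin28b are RNA-binding proteins that block the maturation of let-7 microRNAs, chiefly by binding let-7 precursors and, for Lin28a, by recruiting enzymes that add uridines to them. Mature let-7 in turn represses mRNAs that carry matches to its seed in the 3′ untranslated region (UTR), among them the mRNAs of Lin28 proteins themselves, so that the pair forms a feedback loop. In ESCs Lin28a is abundant and mature let-7 is scarce, and let-7 accumulates as cells differentiate. The polyadenylated RNA sequenced here does not measure mature microRNAs.

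The seed is what joins the family to its targets, so mature sequences from RefSeq (GRCm38.p6) are shown with the seed, bases 2 to 8, in capitals. The first 6 share 1 seed, and the last is shown because its seed differs in the final base.
let-7a: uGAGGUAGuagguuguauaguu
let-7d: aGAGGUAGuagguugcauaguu
let-7e: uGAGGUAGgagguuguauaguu
let-7g: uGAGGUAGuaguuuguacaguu
let-7i: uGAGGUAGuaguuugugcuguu
miR-98: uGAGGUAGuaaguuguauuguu
miR-202-3p: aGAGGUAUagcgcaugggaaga
Of 12 mature names searched, 10 had the seed GAGGUAG, and the reference used lists 12 genes for them. That reference lacks Mirlet7a-2, a gene of the deposited table. The other names, let-7j and miR-202-3p, had the seed GAGGUAU.

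The complement of that seed on a target mRNA reads CTACCTC, called a 7mer match here, and the same letters followed by A, CTACCTCA, are called an 8mer match. Both were searched on the sense strand of 3′ UTRs, and each 8mer is also counted among the 7mers. The 3′ UTRs come from GENCODE transcripts of GRCm38 that were matched through the RefSeq identifiers of the deposited table. In the 10 genes, 21 matches were found, of which 13 were 8mers. They lay in 8 of the 10 genes, whereas Mycn and Dicer1 held none in the 3′ UTR searched. One match from each of the 8 genes is shown with the bases before it, because these are the letters through which a let-7 seed could pair. All lie in exonic 3′ UTR sequence, with the match in capitals and GRCm38 coordinates.
Lin28a, chr4:134005189-134005210, minus strand: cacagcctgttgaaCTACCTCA
Lin28b, chr10:45381022-45381043, minus strand: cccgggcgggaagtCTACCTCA
Trim71, chr9:114512472-114512493, minus strand: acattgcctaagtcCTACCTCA
Hmga2, chr10:120364224-120364245, minus strand: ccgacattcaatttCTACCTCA
Igf2bp1, chr11:95961778-95961799, minus strand: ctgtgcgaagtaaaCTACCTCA
Igf2bp2, chr16:22059473-22059494, minus strand: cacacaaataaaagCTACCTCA
Igf2bp3, chr6:49086787-49086808, minus strand: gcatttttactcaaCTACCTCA
Hmga1, chr17:27563277-27563298, plus strand: tcctctgttcacaaaCTACCTC
The bases before the matches differed from gene to gene, and the sequence shown from Hmga1 was a 7mer without the closing A.

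Lin28b, Trim71, Hmga2 and Igf2bp1 each held 4 matches, Lin28a held 2, and Hmga1, Igf2bp2 and Igf2bp3 held 1 each. All 4 matches of Trim71 were 8mers, and 2 of them lie in a stretch of the GENCODE 3′ UTR beyond the end of the RefSeq gene. Among 12519 expressed genes with a 3′ UTR, 10.03% held at least 1 match, 3.50% held an 8mer and 9 genes (0.0719%) held 4 or more. Long 3′ UTRs have more room for matches, and 9 of the 10 genes had a 3′ UTR longer than the median of 1039 bases. Among the 1412 expressed genes with a 3′ UTR within 20% of that of Hmga2 (3014 bases) in length, 0.142% held as many matches. The share was 0.372% of 806 genes for Lin28b, 0.844% of 474 for Trim71 and 0.619% of 323 for Igf2bp1. Each set includes the gene itself, so these shares are not a background rate. The sets of Trim71 and Igf2bp1 also include others of the 10 genes with 4 matches. The single match of Igf2bp3 was less rare, since 13.5% of genes near its length held at least 1. A match is a stretch of letters, and binding was not measured.

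The libraries held 60263536 reads in E14 and 44609228 reads in E14-Sox2TA/WT cells, assigned to genes. Levels are given as TPM, the share of a transcript among all transcripts, which is scaled for transcript length, so that it can also be compared between genes within a library. Ratios are log2 of TPM in E14-Sox2TA/WT cells over E14, and the range after each ratio is an exact 95% interval from the read counts, which covers counting error only. Sox2 mRNA had 372.5 TPM (28936 reads) in E14 and 274.2 TPM (14270 reads) in E14-Sox2TA/WT cells, a log2 ratio of −0.44. The mRNA level does not check the label, since the edit replaces a residue and removes no part of the gene that reads could show. The ESC marker Pou5f1, which encodes Oct4, was abundant in both libraries at 1725 TPM and 1759 TPM. Of 6 fibroblast markers, taken because feeder cells are fibroblasts, Dcn, Lum and Postn had 0 reads in both libraries. The summed TPM of the 6 was 43.0 in E14 and 15.4 in E14-Sox2TA/WT cells, most of it Thy1.

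In E14-Sox2TA/WT cells, the Lin28 genes and most of the let-7 targets among the 10 genes were expressed at higher levels than in E14. The ratio was above 0 for 9 genes and below 0 for Igf2bp2. All 10 genes reached 10 TPM in 1 library or both, the filter of the study’s comparison, and 57.3% of the 9094 genes past it had a ratio above 0. Of the 10 genes, 9 had a 3′ UTR longer than the median. In the longest of 4 equal bins of 3′ UTR length, 67.2% of expressed genes without a let-7 seed match had a ratio above 0. Lin28b reached the filter only in E14-Sox2TA/WT cells. Lin28b, Mycn, Hmga2 and Igf2bp3 were more than 2-fold higher, 4 of 10 genes, against 4.17% of the genes past the filter. None of the 10 genes was more than 2-fold lower, against 4.07% of genes past the filter. The 4 genes also had a counting interval that lay wholly past 2-fold. The median log2((TPM + 0.1) ratio) of the 10 genes was 0.87, and that of the 13269 expressed genes, those whose TPM averaged 1 or more over both libraries, was 0.04. Because of how the genes were chosen, the shares describe them and are not a test.

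**Figure D1:**
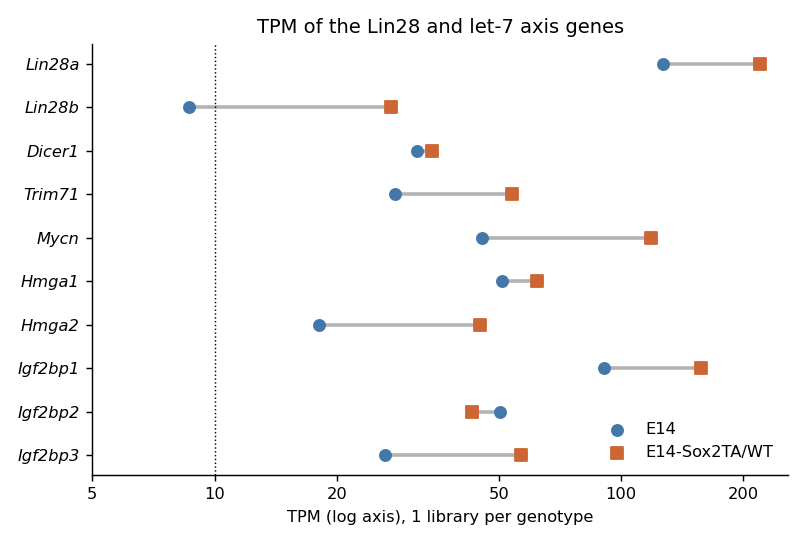
TPM of each gene in E14 cells (circles) and E14-Sox2TA/WT cells (squares) on a log axis, with 1 library per genotype and the filter of 10 TPM as a dotted line. The square lies to the right of the circle for 9 genes and to the left for Igf2bp2, and Lin28b crosses the filter, from 8.63 to 27.2 TPM.

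**Figure D2:**
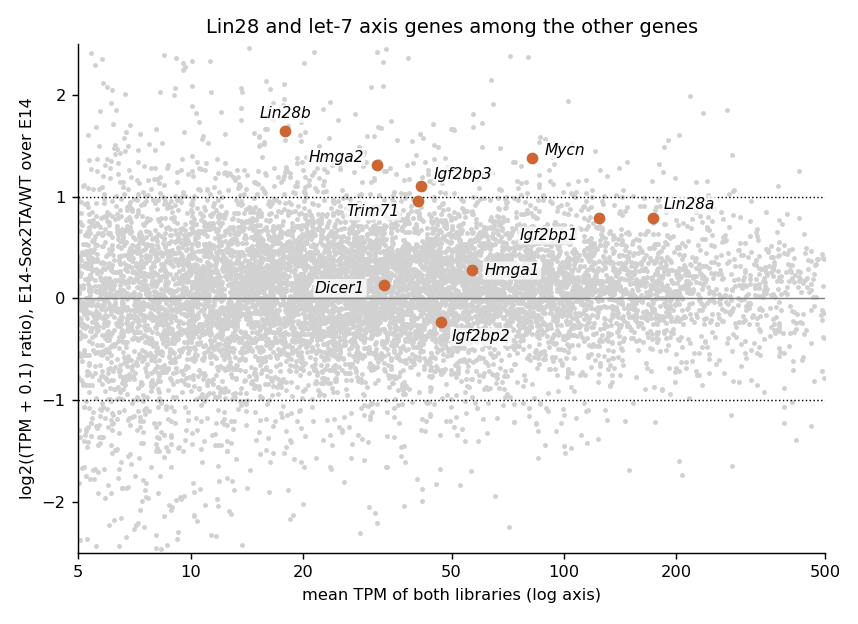
Log2((TPM + 0.1) ratio) of E14-Sox2TA/WT over E14 cells against mean TPM on a log axis, with the 10 genes in colour, other genes in grey and dotted lines at 2-fold. Of the expressed genes, the 10017 within the axes are drawn and 3252 lie outside them. Lin28b, Mycn, Hmga2 and Igf2bp3 lie above the upper dotted line, with Trim71 just below it.

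Among the RNA-binding proteins that block let-7 maturation, both Lin28 genes had higher expression in E14-Sox2TA/WT cells. Lin28a (Entrez gene 83557, chr4:134003330-134019196) had 127 TPM from 13924 reads in E14 and 219.6 TPM from 16127 reads in E14-Sox2TA/WT cells. Its log2 ratio was 0.79 (0.76 to 0.82), which stayed under 2-fold, and 92.4% of genes past the filter had a lower ratio. Lin28b (Entrez gene 380669, chr10:45376617-45486314) had 8.63 TPM from 1469 reads in E14 and 27.2 TPM from 3102 reads in E14-Sox2TA/WT cells. The difference was 3.15-fold, a log2 ratio of 1.66 (1.57 to 1.75), and 99.0% of genes past the filter had a lower ratio. Lin28b was thus the scarcer of the pair with the larger ratio, and the log2 ratios of Lin28b and Lin28a differed by 0.87 (0.77 to 0.96). Lin28a was the main form in both libraries, at 14.7 times the TPM of Lin28b in E14 and 8.07 times in E14-Sox2TA/WT cells. Summed, Lin28 mRNA stood at 136 TPM in E14 and 247 TPM in E14-Sox2TA/WT cells, and the share of Lin28b in it was 6.36% in E14 and 11.0% in E14-Sox2TA/WT cells.

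Dicer1 (Entrez gene 192119, chr12:104687740-104751968) encodes the RNase that cuts let-7 and most other precursors into mature microRNAs. It had 31.4 TPM from 9744 reads in E14 and 34.3 TPM from 7139 reads in E14-Sox2TA/WT cells. The log2 ratio of 0.13 (0.08 to 0.17) lay near the middle of the transcriptome, with 53.8% of genes past the filter lower. Its sign turned with other scalings, to −0.01 for the ratio of FPKM and −0.30 once a trend of the ratio with GC content and length of the transcript was removed.

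Trim71 and Mycn encode regulators of proliferation and are both described as let-7 targets. Trim71 (Entrez gene 636931, chr9:114511268-114564369), an RNA-binding protein with a RING domain that represses mRNAs in stem cells, had 27.7 TPM from 4536 reads in E14 and 53.8 TPM from 5893 reads in E14-Sox2TA/WT cells. Its log2 ratio of 0.96 (0.90 to 1.01) fell just short of 2-fold, and the interval included it. With the ratio of FPKM (0.81) and with the GC and length trend removed (0.71) it lay further below 2-fold. Mycn (Entrez gene 18109, chr12:12936093-12941836), a transcription factor of the Myc family that drives growth, had 45.5 TPM from 3719 reads in E14 and 118 TPM from 6478 reads in E14-Sox2TA/WT cells. It was 2.60-fold higher, a log2 ratio of 1.38 (1.32 to 1.44), although its 3′ UTR of 913 bases held no match to the let-7 seed.

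The high-mobility group proteins Hmga1 and Hmga2 bind AT-rich DNA and shape chromatin in embryonic cells. Hmga2 (Entrez gene 15364, chr10:120361268-120476469) had 18.1 TPM from 2119 reads in E14 and 44.96 TPM from 3537 reads in E14-Sox2TA/WT cells, 2.48-fold higher with a log2 ratio of 1.31 (1.24 to 1.39). Hmga1 (Entrez gene 15361, chr17:27556574-27563672) had 51.0 TPM from 2737 reads in E14 and 62.1 TPM from 2227 reads in E14-Sox2TA/WT cells, a log2 ratio of 0.28 (0.20 to 0.36). The log2 ratios of Hmga2 and Hmga1 differed by 1.03 (0.92 to 1.14).

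The value of Hmga1 is uncertain, because 69.1% of the 50-base stretches of its transcripts also occur in another annotated gene, so that its reads could have been divided. None of the other 9 genes shared more than 0.877% of its 50-base stretches with another gene.

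The Igf2bp genes encode RNA-binding proteins of fetal tissues that stabilize and localize mRNAs, and the 3 genes did not share a direction. Igf2bp1 (Entrez gene 140486, chr11:95957163-96005944) had 91.0 TPM from 24013 reads in E14 and 157 TPM from 27774 reads in E14-Sox2TA/WT cells, a log2 ratio of 0.79 (0.76 to 0.81). Igf2bp3 (Entrez gene 140488, chr6:49085218-49215469) had 26.3 TPM from 3605 reads in E14 and 56.6 TPM from 5195 reads in E14-Sox2TA/WT cells. It was 2.15-fold higher, a log2 ratio of 1.10 (1.04 to 1.17), and came under 2-fold with the ratio of FPKM (0.96) and with the GC and length trend removed (0.90). Igf2bp2 (Entrez gene 319765, chr16:22059009-22163299) had 50.4 TPM from 6195 reads in E14 and 43.0 TPM from 3542 reads in E14-Sox2TA/WT cells, a log2 ratio of −0.23 (−0.29 to −0.17).

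Within the family, the order by TPM was Igf2bp1, Igf2bp2 and Igf2bp3 in E14, and Igf2bp1, Igf2bp3 and Igf2bp2 in E14-Sox2TA/WT cells. Igf2bp2 made up 30.1% of the summed TPM in E14 and 16.8% in E14-Sox2TA/WT cells. Igf2bp3 went from 15.7% to 22.1% and Igf2bp1 from 54.2% to 61.2%. The log2 ratio of Igf2bp2 lay below that of Igf2bp3 by a difference of −1.33 (−1.42 to −1.25), and that of Igf2bp1 by −0.32 (−0.38 to −0.25). Both Igf2bp2 and Igf2bp3 held a single 8mer match, with ratios of opposite sign.

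**Figure D3:**
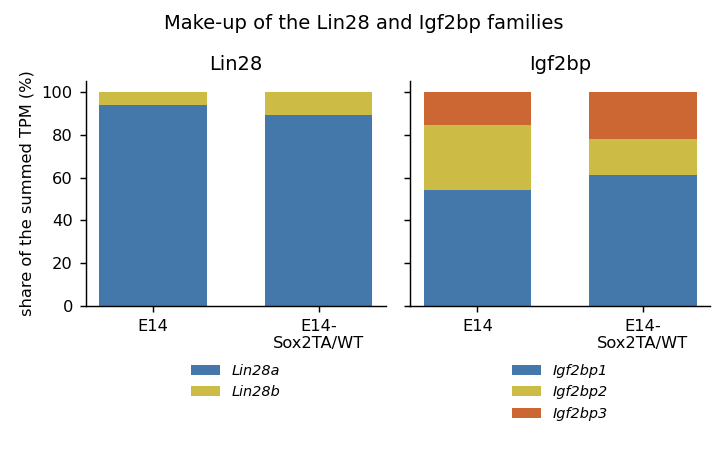
Share of each gene in the summed TPM of its family, in percent, for E14 and E14-Sox2TA/WT cells. The share of Lin28b is 6.36% in E14 and 11.0% in E14-Sox2TA/WT cells, and that of Igf2bp2 is 30.1% and 16.8%.

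**Figure D4:**
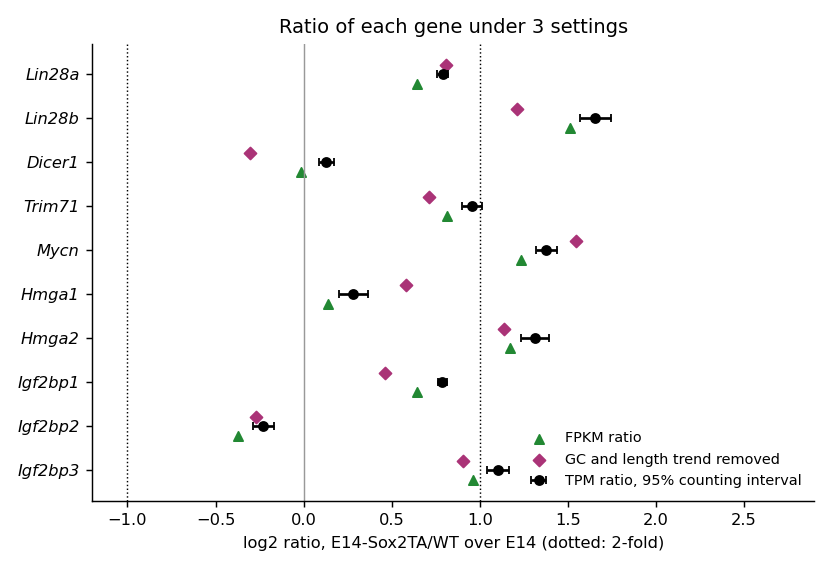
Log2 ratio of E14-Sox2TA/WT over E14 cells for each gene as the TPM ratio with its exact 95% counting interval (circles), as the FPKM ratio (triangles) and with the GC and length trend removed (diamonds), with dotted lines at 2-fold. Lin28b, Mycn and Hmga2 lie above 2-fold in all 3 settings, Igf2bp3 only as the TPM ratio, and Dicer1 lies on both sides of 0.

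The 10 genes lie on 8 chromosomes, with Lin28b and Hmga2 both on chromosome 10 and Dicer1 and Mycn both on chromosome 12. Around each gene, the 20 nearest expressed genes (10 on each side) had a median log2 ratio between −0.31 (around Igf2bp3) and 0.34 (around Hmga2). Single neighbours spread widely. Around Lin28b (log2 ratio 1.66) the median was 0.21 and the highest neighbour 1.96, around Mycn (1.38) they were 0.23 and 1.37, and around Hmga2 (1.31) they were 0.34 and 1.97.

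Other genes of the pathway were taken from lists written from general knowledge. Transcripts of the let-7 genes were nearly undetected, as 13 listed precursor genes held 12 reads in all in E14 and 19 in E14-Sox2TA/WT cells. Of these, 7 genes had 0 reads in both libraries, which allows up to 0.0498 CPM (reads scaled to a library total) in E14 and 0.0673 in E14-Sox2TA/WT cells (3 reads). Only Mirlet7d passed 3 reads, with 7 reads in E14 and 15 in E14-Sox2TA/WT cells, a log2 TPM ratio of 1.67 whose interval ran from 0.29 to 3.21. The interval of Mirlet7d covers counting error only and has no replicate check, so it does not establish a difference in let-7 precursors. For the other genes, a difference was not detectable at this depth and with polyadenylated RNA.

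The machinery that processes let-7 had a median log2((TPM + 0.1) ratio) of 0.28 over 15 genes. Of these, 13 were higher and 2 lower in E14-Sox2TA/WT cells. Over all expressed genes the median was 0.04, and 53.2% were higher. As ratios of FPKM, Drosha (0.04) and Ran (0.09) fell below 0, to −0.11 and −0.05, while the others of the 13 kept their sign. Dgcr8, the partner of Drosha in cutting primary microRNAs, was more than 2-fold higher, with 23.6 TPM in E14 and 53.3 TPM in E14-Sox2TA/WT cells and a log2 ratio of 1.17. Hnrnpa1, which binds some primary microRNAs, had a log2 ratio of 2.60, but it shares 46.4% of its 50-base stretches with other genes. Of 18 genes that share stretches with it, 2 are in the table, Gm10052 and Gm5643. Summed with these copies, its log2 ratio was −0.19 from read counts and −0.65 from TPM, so that its direction is uncertain. Tarbp2, a partner of Dicer1, had the lowest log2 ratio at −0.53 and is uncertain too, since 49.1% of its stretches occur in a copy that is not listed in the table.

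The proteins through which let-7 represses its targets had a median of 0.66 over 6 expressed genes. Of these, 5 passed the filter and 0 were past 2-fold in either direction. Over all genes past the filter, 4.17% were more than 2-fold higher and 4.07% lower, so a count of 0 over so few genes says little. Ago1, an Argonaute protein that holds mature microRNAs, had the highest log2 ratio at 0.84, and Tnrc6b, an adaptor of Argonaute proteins, the lowest of the 6 at 0.45. Ago4, with 0.946 TPM in E14 and 0.699 TPM in E14-Sox2TA/WT cells, was too low to enter the median, and its log2 ratio was −0.44. Removal of the GC and length trend took the median of this group to 0.27 and that of the processing machinery to 0.08.

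A list of further genes described as let-7 targets held 25 genes, after 1 gene not reported here had been left out with its value known but for another reason. In E14-Sox2TA/WT cells 22 of the 24 expressed genes were higher, with a median of 0.54, where 53.2% of all expressed genes were higher. Cdc34 (log2 ratio 0.01) is counted among the 22, and its ratio of FPKM fell below 0, to −0.13. Past the filter, 6 genes were more than 2-fold higher and 0 were more than 2-fold lower, against 4.17% and 4.07% of all genes past it. Of these 6, 4 genes (Igf1r, Irs2, Cdk6 and Thbs1) were under 10 TPM in E14 and passed the filter only through the library in which they were high, so the count lends no support to a direction of the list. The growth factor signaling genes Igf1r (log2 ratio 1.29) and Irs2 (2.12), the cell cycle kinase Cdk6 (1.74), the transcription factor Myc (1.91), the secreted protein Thbs1 (3.30) and the chromatin remodeler Smarcad1 (1.02) were these 6. Myc had 27.1 TPM from 2047 reads in E14 and 102 TPM from 5158 reads in E14-Sox2TA/WT cells, and was thus higher, as Mycn was. Fignl2 had the lowest log2 ratio, −0.88, although its 3′ UTR held 3 8mer matches. The 15 expressed genes of this list with a seed match had a median of 0.47, and the 9 without one had a median of 0.63.

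The 5 mRNAs described as repressed by Trim71 gave a mixed picture. The cell cycle inhibitor Cdkn1a had the lowest log2 ratio (−0.46, from 142 to 103 TPM) and the splicing regulator Mbnl1 the highest (0.98, from 2.76 to 5.45 TPM). The median over the 5 genes was 0.06, and it turned negative with other scalings (−0.08 with FPKM). Of the 4 genes past the filter, 0 were more than 2-fold higher or lower, against 4.17% and 4.07% of all genes past it.

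Across all expressed genes, the median log2((TPM + 0.1) ratio) was 0.03 for 11263 genes without a let-7 seed match, 0.11 for 1101 genes with 1 match and 0.18 for 155 genes with 2 or more. The sets also differed in 3′ UTR length, with medians of 941, 2040 and 3610 bases. Among genes without a match, the ratio went with length, from −0.14 in the shortest of 4 equal bins of 3′ UTR length to 0.24 in the longest. Within the longest bin, genes with 0, 1 and 2 or more matches had medians of 0.24, 0.20 and 0.20. After removal of the GC and length trend, the 3 sets had medians of 0.04, −0.01 and −0.01. Seed matches and 3′ UTR length thus differed together between the sets, and the part of each in the step was not tested. The 9 expressed genes with 4 or more matches had ratios above 0, with a median of 0.79. All lie in the longest bin, where 67.2% of genes without a match and 67.7% with 2 or more had a ratio above 0. The 5 of them that are not among the 10 genes had a median of 0.19. Of these 5, D10Wsu102e (log2 ratio 1.26) had an annotated 3′ UTR of 122583 bases. Nr6a1, a nuclear receptor with 8 matches, had a log2 ratio of 0.19.

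**Figure D5:**
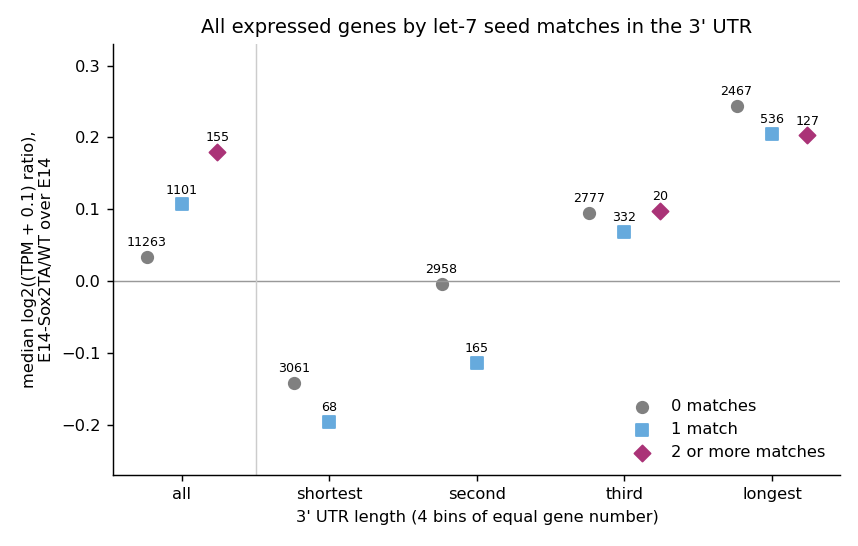
Median log2((TPM + 0.1) ratio) of E14-Sox2TA/WT over E14 cells for expressed genes with 0 (circles), 1 (squares) and 2 or more (diamonds) let-7 seed matches in the 3′ UTR, over all genes and by bin of 3′ UTR length, with the number of genes above each point and sets of fewer than 20 genes not drawn. The medians step up from 0.03 to 0.18 over all genes, whereas in the longest bin they are 0.24, 0.20 and 0.20.

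Markers of cell states that ESC cultures can hold differed along with these genes. All 4 markers of primed epiblast (Fgf5, Pou3f1, Otx2, Dnmt3b) were higher in E14-Sox2TA/WT cells, with a summed TPM of 78.6 in E14 and 216 in E14-Sox2TA/WT cells. The 6 ESC markers summed to 10524 TPM in E14 and 7652 TPM in E14-Sox2TA/WT cells, with 4 markers lower and 2 higher. Dppa5a, the most abundant, made up most of the difference, with 6877 TPM in E14 and 4429 TPM in E14-Sox2TA/WT cells. Nanog was the one past 2-fold (log2 ratio −1.07), whereas Pou5f1 (0.03) and Esrrb (0.10) lay slightly above 0. The 4 primitive endoderm markers were all lower, with a summed TPM of 30.9 in E14 and 8.13 in E14-Sox2TA/WT cells. The 4 trophectoderm markers summed to 3.39 TPM in E14, most of it Hand1 (2.59 TPM), and to 15.9 TPM in E14-Sox2TA/WT cells, most of it Cdx2 (12.2 TPM), and Elf5 had 0 reads in both libraries. In bulk RNA, a change in the share of cells in a state and a change in RNA per cell cannot be told apart, and the part of these states in the levels of the Lin28 and let-7 axis genes was not tested.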

How the data were processed

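Polyadenylated RNA of 1 E14 and 1 Sox2 T258A library was sequenced on a NovaSeq instrument. The gene table deposited by the authors uses the mm10 build (GRCm38) and gives raw read counts per gene. FPKM values, also deposited, are scaled by transcript length and library size, and the TPM values deposited by the authors are FPKM times a constant of each library (1.94 in E14, 2.15 in Sox2 T258A). The submitters' processing notes name bcl2fastq 2.20.0, Trimmomatic, HISAT2 2.1.0 and StringTie 2.1.3b. The handling of strand and of reads that map to several genes is not given in the sources used here, which can split reads between copies.

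Ratios were taken on TPM without a pseudocount, with genes at 10 TPM or more in at least 1 library counted past 2-fold. Medians used a pseudocount of 0.1 and genes averaging 1 TPM or more. Intervals are 95% Clopper-Pearson intervals of the read counts, and they, like the floor of 3 reads, describe counting error alone, as PCR copies are not independent molecules. TMM factors came from edgeR 4.0.16 and median-of-ratios factors from DESeq2 1.42.0, as scaling alternatives without a test. Reads shared with copies were judged from 50-base stretches of GENCODE M21 transcripts, and seed matches from the 3′ UTRs of the same transcripts. The trend on GC content and transcript length was removed by medians in 20 bins each. The ratio of scaled counts, its counting interval, the 2-fold call and the trend removal were tested on simulated data. The simulated counts held counting error only. The seed search, the search for copies and the list medians were not part of that test.

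The members and lists were chosen with earlier results of these data known. Named genes were the 10 genes, Sox2 and, of each list, the genes past 2-fold or the highest and lowest ratio. Tarbp2, Drosha, Ran, Ago4, Cdc34, Fignl2, Nr6a1, D10Wsu102e and the single marker genes were named after their values were seen. No likeness of pattern is defined over 2 libraries, and protein sequences were not used here. A let-7 target of the list was left out after the results had been seen and is not reported here.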

Additional observations from a re-analysis of the deposited data

How the results depend on the processing

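Over the scaling, unit, composition and pseudocount alternatives, 9 of the 10 genes kept the sign of their log2 ratio, and Dicer1 (0.13) turned to −0.015 with CPM and −0.015 with FPKM and to −0.30 with the trend on GC content and length removed. The CPM and FPKM ratios lie about 0.14 below the TPM ratios on the log2 scale. The number of the 10 genes more than 2-fold higher was 4 on TPM, against 4.17% of genes past the filter. It was 3 with CPM, 3 with FPKM and 3 with the trend removed. At other thresholds it was 7 at 1.5-fold and 1 at 3-fold. The share over all genes was not taken at these thresholds, so the 2 counts have no background to be read against. The median of the 10 genes (0.87) was 0.73 with CPM, 0.73 with FPKM, 0.83 with TMM, 0.83 with centring, 0.76 with the trend removed and 0.95 without Hmga1. The median of the processing machinery (0.28) was 0.13 with CPM, 0.13 with FPKM, 0.23 with TMM, 0.23 with centring and 0.079 with the trend removed. That of the effector proteins (0.66) was 0.52 with CPM, 0.52 with FPKM and 0.27 with the trend removed, and that of the other let-7 targets (0.54) was 0.40, 0.40 and 0.39. The median of the Trim71 target mRNAs (0.06) turned to −0.081 with CPM, −0.081 with FPKM, −0.23 with the trend removed and −0.056 over genes averaging 10 TPM or more. The difference between genes with 2 or more let-7 matches and genes with none (0.15) was 0.11 with 8mers only. It was 0.12 over genes averaging 10 TPM or more, and 0.12 without the 10 genes and the other let-7 targets. With the trend removed it was −0.056. It was 0.0029 in the third of 4 bins of 3′ UTR length and −0.042 in the longest, and the shorter bins held too few genes with 2 or more matches. The shift with FPKM is that of the 2 constants between FPKM and TPM, 1.94 in E14 and 2.15 in Sox2 T258A. The cause of the other shifts was not tested. The sum of Hmga1 reads with reads of similar sequence is not reported here. The alternatives without Hmga1, with Hnrnpa1 left out or summed with its copies, and the length, trend and left-out-gene settings of the seed sets were chosen after seeing the data. No paired analysis was possible because each genotype had 1 library, and for the same reason no library could be left out.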
